A study of Mus musculus with 768 samples.

Results

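The genes described here are 7 little-studied genes of early T cells, Endou, Arpp21, Aqp11, Dgkeos, Rgcc, Myl10 and Slc5a9, out of 23127 named genes in the count file. They were chosen by their measured counts, high in libraries of the DN2-3 gate and few or none in the wild-type (WT) DN1 library, so the contrast between those gates is given as a description, without a test. The libraries hold single thymocytes of C57BL/6 mice aged 6 to 8 weeks, sorted one cell per well on 8 plates of 96 cells. Double-negative (DN) thymocytes lack CD4 and CD8. The DN2-3 gate took lineage-negative CD25-positive cells, from Tcf7-/- mice (1 plate), Vav-cre; Tcf7fl/fl mice (1 plate), Lck-cre; Tcf7fl/fl mice (2 plates) and WT mice (1 plate). The DN1 gate took lineage-negative CD25-negative CD44-positive cells, from Tcf7-/-, Vav-cre; Tcf7fl/fl and WT mice (1 plate each). Vav-cre drives a recombinase throughout the blood system, Lck-cre one that turns on in T-cell precursors, and both genotypes are written below by the recombinase alone. No animals are named on the labels, so each plate is 1 sample and no p-value is given anywhere.

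Thymocytes pass from DN1 through DN2, where they commit to the T lineage, to DN3, where the T-cell receptor beta chain is rearranged and tested together with the pre-T alpha chain, encoded by Ptcra. TCF1, the protein of Tcf7, acts downstream of Notch signalling and opens T-lineage genes during that passage. CD25, encoded by Il2ra, marks the cells that have left DN1.

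The members have roles that are mostly known from other tissues. Endou is an endoribonuclease that cuts RNA at uridylates, and Arpp21 is an RNA-binding phosphoprotein with an R3H domain, best known from striatal neurons. Dgkeos is a noncoding RNA transcribed from the strand opposite to Dgke, a diacylglycerol kinase. Aqp11 is an aquaporin of the endoplasmic reticulum, known for cystic kidneys when it is lost, and Slc5a9 is a sodium-coupled carrier of mannose and glucose. Rgcc is a regulator of the cell cycle that binds the kinase Cdk1, and Myl10 is a regulatory light chain of myosin first described in precursor lymphocytes.

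On mm10, Endou lies on chromosome 15 (97711015 to 97731339, minus strand), Arpp21 on chromosome 9 (112065091 to 112235938, minus strand) and Aqp11 on chromosome 7 (97724006 to 97738289, minus strand). Dgkeos lies on chromosome 11 (89064729 to 89069098, plus strand), Rgcc on chromosome 14 (79288756 to 79301645, minus strand), Myl10 on chromosome 5 (136693146 to 136701094, plus strand) and Slc5a9 on chromosome 4 (111875375 to 111902918, minus strand). The 7 genes are thus on 7 chromosomes. GENCODE annotates 6 of them as protein coding and Dgkeos as antisense.

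Because the genes were picked for 1 shared pattern, the bases upstream of their starts were searched for letters bound by factors of early T cells. RefSeq (GRCm38.p6) gave 15 windows of 250 bases before an annotated start for 5 of the members, 9 of them for Arpp21 and 3 for Myl10; Endou and Slc5a9 had no entry. Shown here are the windows of the members with 1 start and a stretch free of annotated exons, Aqp11 and Rgcc, and the 2 Myl10 windows that hold the TCF/LEF letters, since TCF1 is the factor deleted in the study. Capitals mark matches to an E-box (CANNTG) or to the TCF/LEF core (CTTTGA or CTTTGT), on either strand. The sequences read towards the gene, from 5' to 3', with exonic bases left off.
Aqp11, chr7:97738290-97738497, minus strand: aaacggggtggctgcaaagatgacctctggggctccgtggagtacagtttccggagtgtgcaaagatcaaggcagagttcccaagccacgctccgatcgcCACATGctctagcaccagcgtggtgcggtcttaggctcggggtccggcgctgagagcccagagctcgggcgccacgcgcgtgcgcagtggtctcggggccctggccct
Rgcc, chr14:79301646-79301885, minus strand: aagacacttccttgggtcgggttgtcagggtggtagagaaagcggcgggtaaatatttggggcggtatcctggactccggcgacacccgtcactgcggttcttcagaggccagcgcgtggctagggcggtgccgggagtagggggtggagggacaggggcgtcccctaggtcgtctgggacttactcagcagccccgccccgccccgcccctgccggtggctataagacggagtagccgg
Myl10, chr5:136693426-136693675, plus strand: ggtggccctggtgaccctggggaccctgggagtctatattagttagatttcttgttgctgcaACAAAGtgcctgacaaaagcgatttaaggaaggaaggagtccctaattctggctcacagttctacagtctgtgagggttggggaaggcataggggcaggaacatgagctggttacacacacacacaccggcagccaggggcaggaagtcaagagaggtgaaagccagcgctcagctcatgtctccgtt
Myl10, chr5:136693927-136694176, plus strand: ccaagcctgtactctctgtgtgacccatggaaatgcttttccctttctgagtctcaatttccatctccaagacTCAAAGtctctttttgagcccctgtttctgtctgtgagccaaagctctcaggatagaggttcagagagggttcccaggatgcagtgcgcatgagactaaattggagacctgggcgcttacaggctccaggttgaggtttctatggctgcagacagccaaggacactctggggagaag
The Aqp11 stretch holds 1 E-box, 150 bases before the RefSeq start, and the Rgcc stretch holds none of the letters searched. The TCF/LEF match stands 188 bases before one Myl10 start and 177 bases before another. Both of these windows lie inside the Myl10 gene as placed above. The window before the gene, chr5:136692896-136693145, is not shown and holds no TCF/LEF letters, but holds GATA and RBPJ letters. RBPJ letters (TGGGAA), not in capitals here, stand 173 bases before the Aqp11 start and 107 bases before the last of the Myl10 starts. Over all members, 11 of the 15 windows held an E-box (9 of 9 for Arpp21, 0 of 3 for Myl10), against 66.2% of 32851 mouse windows of the same length. The TCF/LEF letters were in 5 of the 15 windows, 2 of Myl10 and 3 of Arpp21, some of whose 9 windows overlap, against 27.6% of all windows. The Runx letters (TGTGGT) were in 3, the GATA letters (AGATAA) in 2 and the RBPJ letters in 3 of the 15, against 14%, 9.99% and 21.6%. A match is only the presence of these letters.

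Arpp21 also carries a microRNA gene in its body, shown because it lies inside the transcript measured here. The mature strands of miR-128-2 are printed with the seed, bases 2 to 8, in capitals.
mmu-miR-128-3p, chr9:112118644-112118664, minus strand: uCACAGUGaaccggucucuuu
mmu-miR-128-2-5p, chr9:112118679-112118701, minus strand: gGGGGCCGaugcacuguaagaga
The microRNAs themselves were not measured in these libraries.

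Of 768 cells, the 675 with 1000 or more detected genes were used. A DN2-3 library held 76 to 93 kept cells and between 4381685 and 8371808 counts, and a DN1 library held 58 to 96 kept cells and between 1547512 and 7112702 counts. Levels are CPM, the summed counts of a gene scaled to a common library total. They carry no correction for gene length, so they compare libraries and not genes. Intervals are 95% and exact, and cover counting error only. With 0 counts of a gene the upper limit was 0.519 CPM in WT DN1 and 2.38 CPM in Vav-cre DN1. Tcf7 itself, read in these libraries, had 122 CPM in Tcf7-/-, 964 in Vav-cre, 762 and 658 on the Lck-cre plates and 862 in WT DN2-3. The DN1 libraries had 98.6 CPM of it in Tcf7-/-, 368 in Vav-cre and 134 in WT. The libraries labelled Vav-cre and Lck-cre thus had Tcf7 counts near or above the WT level. Tcf7-/- DN1 lay below WT DN1 by a log2 ratio of only -0.41, short of 2-fold. Which exons these reads cover is not given, and values below are those of libraries under their labels. The labels of the Tcf7-/- plates name another kind of RNA than the other labels do (polyA against total), and a batch of that kind cannot be told apart from the genotype.

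The gates hold different cells, and markers of other lymphocytes were higher in DN1, where the members were lower. Markers of natural killer (NK) cells summed to 245 to 499.6 CPM over the 5 DN2-3 libraries and to 1767 to 5074 CPM over the 3 DN1 libraries, where 7 or all 8 of the 8 NK genes had counts. In DN2-3 the counts were mostly of Nkg7, while Ncr1 and Eomes were at 0 in all 5 libraries. Markers of innate lymphoid cells summed to 237 to 697 CPM in DN2-3 and 5499 to 8730.1 CPM in DN1. Il2ra, the gene of the antigen that defines the gate, had 225 to 419 CPM in DN2-3, and 60.6 CPM in Tcf7-/-, 169 in Vav-cre and 9.70 in WT DN1. The part of cell type in the contrast between the gates was not tested.

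All 7 members were at least 2-fold higher in DN2-3 than in DN1 in each of the 3 genotypes with both gates. At that fold 16.3% of the genes measured (10 CPM or more in either library) were higher in DN2-3 among WT libraries, 8.14% among Tcf7-/- libraries and 15.9% among Vav-cre libraries, while 11.7%, 17.1% and 24.7% were lower. The WT contrast chose the members and the other DN2-3 libraries entered the choice as well, so these counts describe the choice. The median log2 ratio of the members was 4.97 in WT, 3.01 in Tcf7-/- and 4.29 in Vav-cre, against 0.15, -0.12 and -0.18 over all measured genes. Log2 ratios are of CPM + 10, which understates the change of genes at low levels. No threshold was stated for the choice; the member with the lowest level in WT DN2-3 was Slc5a9, at 113 CPM, and the member with the highest level in WT DN1 was Rgcc, at 43.9 CPM.

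**Figure D1:**
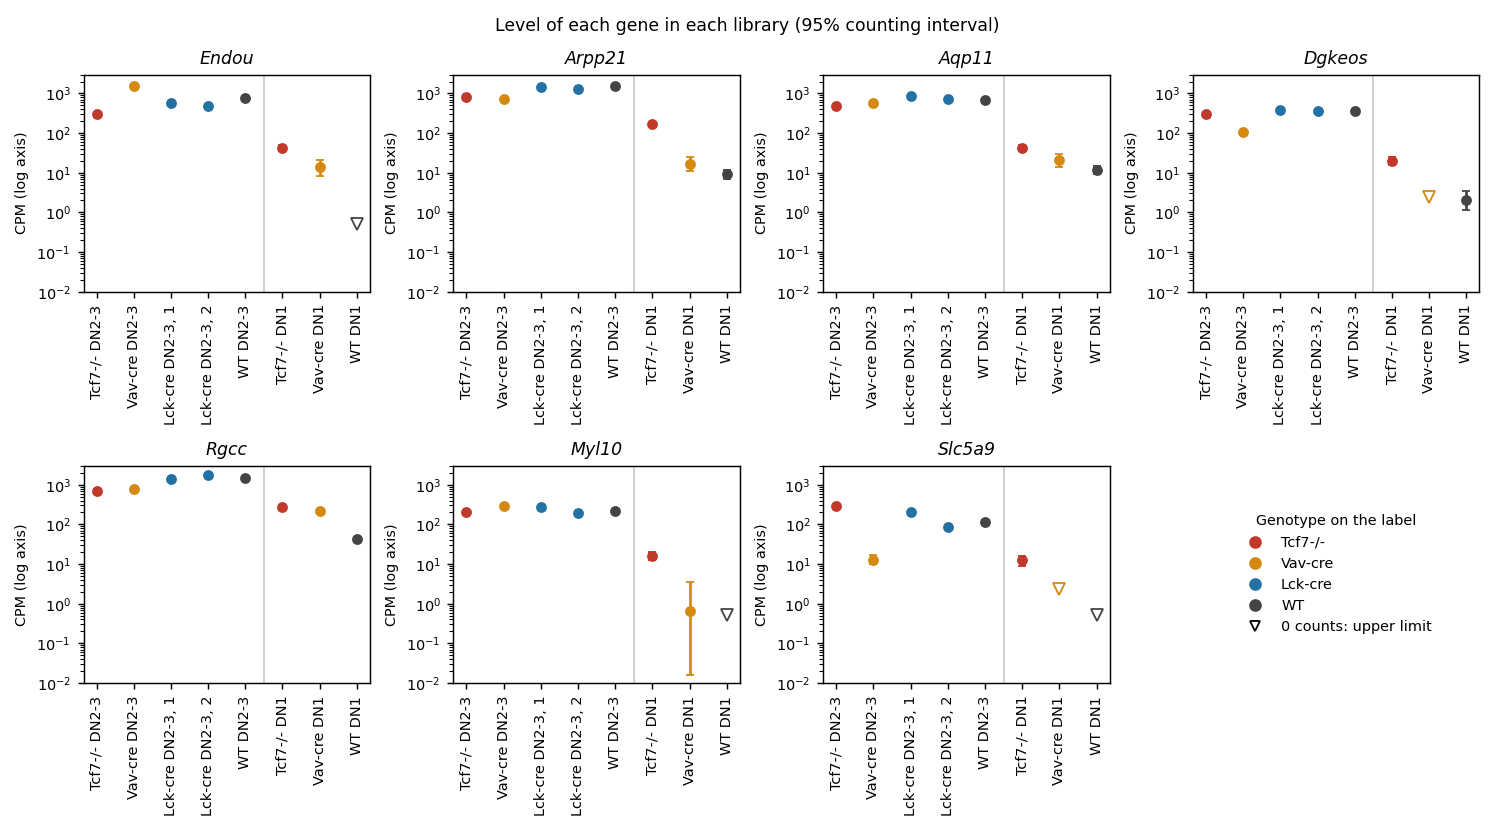
Level of each gene in CPM (log axis) in the 5 DN2-3 libraries, left of the grey line, and the 3 DN1 libraries, right of it, with exact 95% counting intervals, coloured by the genotype on the label. Open triangles are upper limits where a library had 0 counts. Every gene is higher in the DN2-3 library of a genotype than in its DN1 library, while the Vav-cre library is highest for Endou at 1573 CPM and lowest for Slc5a9 at 13.0 CPM among DN2-3.

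Endou, the endoribonuclease, had 311 CPM (interval 299 to 323) in Tcf7-/-, 1573 (1536 to 1610.5) in Vav-cre, 573 (555 to 593) and 491 (473 to 509) on the Lck-cre plates and 790.0 (765 to 815) in WT DN2-3. The DN1 libraries had 42.3 CPM (36.3 to 49.0) in Tcf7-/-, 13.6 (8.40 to 20.7) in Vav-cre and 0 in WT, where no count was found in 86 cells. Every DN2-3 library was above every DN1 library, and WT DN2-3 was 1873-fold higher than WT DN1, taken at a floor of 3 counts. The exact interval of that ratio starts lower, at 1522. The ratio of DN2-3 to DN1 was 7.35 (6.31 to 8.62) in Tcf7-/- and 116 (75.8 to 187) in Vav-cre. Of the 21 counts in Vav-cre DN1, 95.2% lay in 1 cell. Among DN2-3 cells a count was found in 84.9% of Tcf7-/-, 96.1% of Vav-cre, 90.1% and 86.2% of Lck-cre and 93.2% of WT cells, with medians of 16, 51, 25, 16 and 32 counts per cell in that order. Ordered by level, each DN2-3 library differed from its neighbour by more than its counting interval, and the Lck-cre plates differed from each other by 0.22 on the log2 scale.

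Arpp21, the RNA-binding phosphoprotein, had 830.4 CPM (811 to 850.2) in Tcf7-/-, 721 (696 to 747) in Vav-cre, 1480.3 (1450.0 to 1511) and 1269 (1241 to 1298) on the Lck-cre plates and 1521 (1487 to 1556) in WT DN2-3. In DN1 it had 168 CPM (156 to 181) in Tcf7-/-, 16.8 (11.0 to 24.6) in Vav-cre and 9.14 (7.05 to 11.6) in WT. The Lck-cre plates and WT stood above Tcf7-/- and Vav-cre within the DN2-3 gate, and Tcf7-/- stood apart within DN1. All 65 counts in WT DN1 came from 1 of 86 cells. That cell also held 61 of the 84 Aqp11 counts of the library, with 21 counts of Dntt and 169 of Nkg7 and none of Il2ra. WT DN2-3 was 166-fold (130.4 to 216) higher than WT DN1. WT and Lck-cre plate 1 did not differ beyond their intervals, and Tcf7-/- and Vav-cre differed by 0.20 on the log2 scale, within the 0.22 between the Lck-cre plates. The noncoding RNAs 2310075C17Rik and 2900079G21Rik lie over Arpp21 on the other strand, and had 5.02 to 17.1 and 7.36 to 20.7 CPM in DN2-3.

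Dgkeos, the antisense RNA, had 306 CPM (294 to 318) in Tcf7-/-, 109 (99.3 to 119) in Vav-cre, 379.7 (364 to 396) and 369 (354 to 385) on the Lck-cre plates and 370.2 (353 to 387) in WT DN2-3. Among DN1 libraries it had 20 CPM (15.9 to 24.7) in Tcf7-/-, 0 in Vav-cre and 2.11 (1.18 to 3.48) in WT. The Vav-cre library was the low one of the DN2-3 gate: 50% of its cells had a count, against 84.1% in WT, with medians of 0.5 and 11.0 counts per cell. The Lck-cre plates and WT overlapped in their intervals. Dgke, on the opposite strand, had 32.1 CPM in Tcf7-/-, 64.1 in Vav-cre, 101 and 84.1 in Lck-cre and 186 in WT DN2-3, an order unlike that of Dgkeos. GENCODE exons of Dgkeos share 100 of their 2133 bases (4.69%) with exons of Dgke, and the strand used in counting is not given in the sources used here, so reads over those bases cannot be told apart. How many reads lie there was not measured.

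Aqp11, the aquaporin, had 484 CPM (469 to 499) in Tcf7-/-, 589 (567 to 613) in Vav-cre, 846 (823 to 869) and 716 (694 to 738) on the Lck-cre plates and 686 (663 to 709) in WT DN2-3. The DN1 libraries had 42.3 CPM (36.3 to 49.0) in Tcf7-/-, 20.7 (14.1 to 29.2) in Vav-cre and 11.8 (9.42 to 14.6) in WT. Between 90.8% and 100% of the cells of a DN2-3 library had a count. Lck-cre plate 2, WT and Vav-cre followed each other in level by no more than the 0.24 between the Lck-cre plates on the log2 scale, and Tcf7-/- lay 0.28 below Vav-cre. WT DN2-3 was 58.1-fold (46.8 to 73.0) higher than WT DN1, where 72.6% of the counts lay in the 1 cell described above.

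Slc5a9, the mannose and glucose carrier, had 283 CPM (272 to 295) in Tcf7-/-, 13.0 (9.85 to 16.9) in Vav-cre, 210.4 (199 to 222) and 87.3 (79.9 to 95.2) on the Lck-cre plates and 113 (104 to 122) in WT DN2-3. In DN1 it had 12.3 CPM (9.13 to 16.1) in Tcf7-/- and 0 in Vav-cre and WT. Tcf7-/- was the highest and Vav-cre the lowest DN2-3 library, and Vav-cre DN2-3 overlapped Tcf7-/- DN1. The gene was confined to part of the cells: a count was found in 69.9% of Tcf7-/-, 10.5% of Vav-cre, 63.7% and 43.7% of Lck-cre and 34.1% of WT DN2-3 cells, and over 5 counts in 37, 3, 33, 21 and 21 cells. These shares depend on depth. With cells thinned to 10000 counts they were 44.9%, 9.23%, 42.4%, 28.4% and 27.5% in that order. One cell held 45.6% of the 57 Vav-cre counts, another 38.0% of the WT counts and another 18.3% of those on Lck-cre plate 1. The Lck-cre plates differed by 1.18 on the log2 scale, the widest gap of the 7 members and the one past 2-fold, where 2.59% of 8004 measured genes were higher and 2.80% lower on plate 1. Of 3712 genes at 50 CPM or more, 95% differed between those plates by 0.85 or less. Tcf7-/-, the Lck-cre plates and WT followed each other in level by less than 1.18. In WT, DN2-3 was 267-fold higher than DN1 at the floor of 3 counts, with an exact interval from 217.

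Rgcc, the cell cycle regulator, had 699 CPM (681 to 717) in Tcf7-/-, 774 (749 to 801) in Vav-cre, 1428 (1398 to 1458) and 1725 (1692 to 1759) on the Lck-cre plates and 1449 (1416 to 1483) in WT DN2-3. In DN1 it had 269 CPM (253 to 285) in Tcf7-/-, 224 (201 to 249) in Vav-cre and 43.9 (39.1 to 49.0) in WT. It was the member with the smallest ratio of DN2-3 to DN1 in all 3 genotypes, 2.60 (2.44 to 2.77) in Tcf7-/-, 3.45 (3.09 to 3.87) in Vav-cre and 33.0 (29.5 to 37.1) in WT. A count was found in 94.7% to 100% of the cells of each DN2-3 library. Among DN1 cells it was found in 92.7% of Tcf7-/-, 31.0% of Vav-cre and 25.6% of WT cells, and over 5 counts in 46, 12 and 9 cells.

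Myl10, the myosin light chain, had 200.1 CPM (191 to 209.9) in Tcf7-/-, 285 (269.7 to 302) in Vav-cre, 271 (258 to 284) and 198 (186 to 209) on the Lck-cre plates and 223 (209.9 to 236) in WT DN2-3. In DN1 it had 16.1 CPM (12.5 to 20.5) in Tcf7-/-, 0.646 (0.0164 to 3.60), a single count, in Vav-cre and 0 in WT. WT DN2-3 was 528-fold higher than WT DN1 at the floor of 3 counts, with an exact interval from 429. The neighbours in the order of DN2-3 libraries all lay within 0.27 of each other on the log2 scale, less than the 0.44 between the Lck-cre plates.

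**Figure D2:**
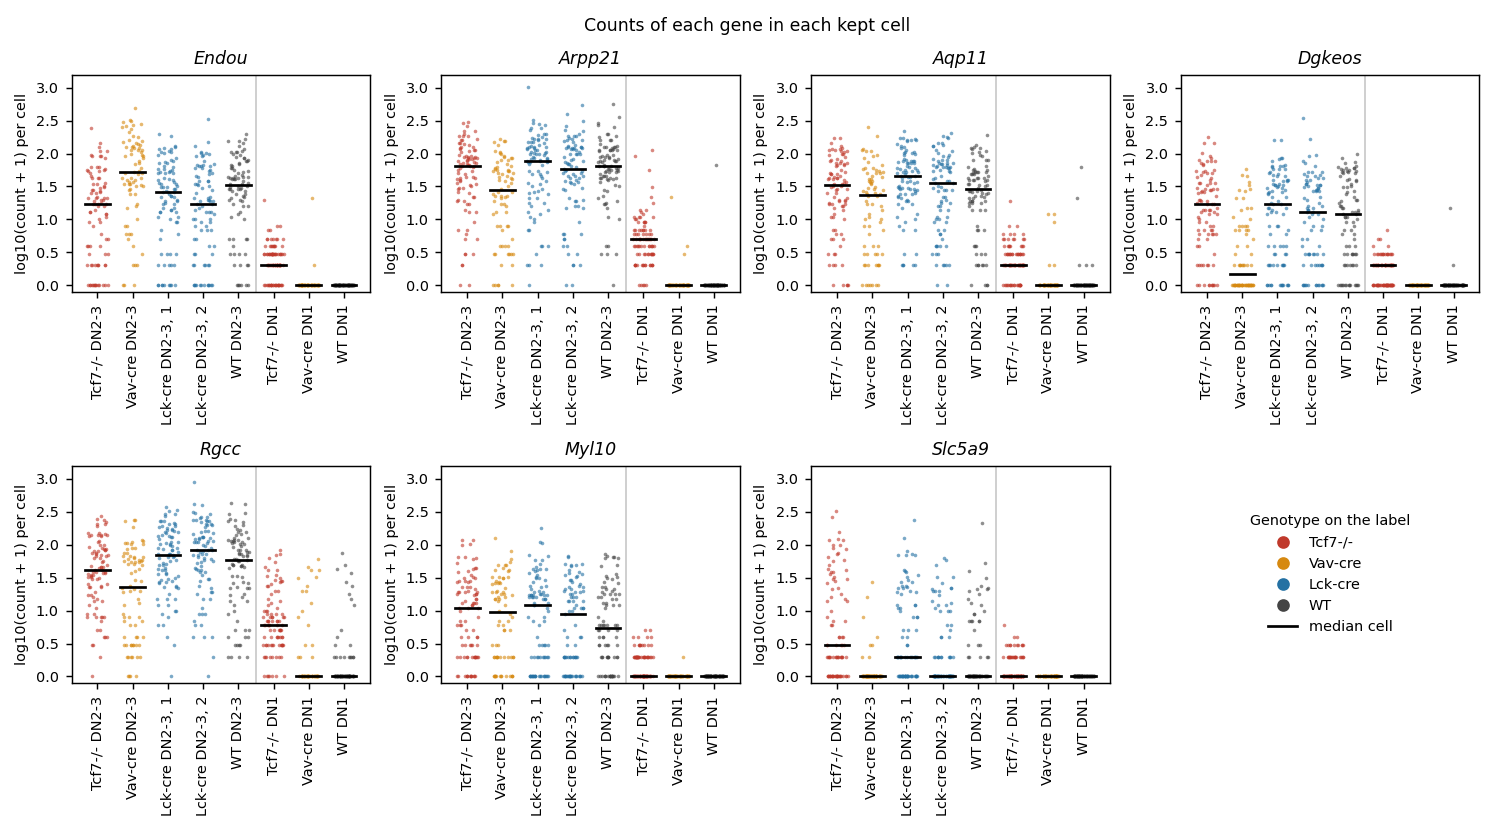
Counts of each gene in each of the 675 kept cells, as log10(count + 1), by library, with DN2-3 left and DN1 right of the grey line and the median cell as a black bar. Most DN2-3 cells hold counts of the genes other than Slc5a9, whose counts lie in part of the cells, and in Tcf7-/- DN1 most cells hold a few counts of Endou, Arpp21, Aqp11 and Rgcc.

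Within the DN2-3 gate, the genotypes were set against WT DN2-3. The levels of these libraries entered the choice of the genes, so the differences are a description. In Tcf7-/- DN2-3, 1 member was at least 2-fold higher (Slc5a9, log2 ratio 1.26) and 2 were at least 2-fold lower (Endou, -1.32, and Rgcc, -1.04). Over all 8255 measured genes 3.19% were higher and 10.5% lower at that fold. Arpp21 had -0.87, Aqp11 -0.49, Dgkeos -0.27 and Myl10 -0.15 (0.13 with cells thinned to 10000 counts), and the median over all measured genes was -0.17. For Rgcc the fold fell short of 2 with each cell weighted equally, with cells thinned to 10000 counts and with median-of-ratios scaling, where it had -0.84. For Slc5a9 the ratio was 1.67 without the highest cell of each library.

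In Vav-cre DN2-3, no member was at least 2-fold higher and 3 were at least 2-fold lower, Arpp21 (log2 ratio -1.07), Dgkeos (-1.68) and Slc5a9 (-2.42). Over all 8357 measured genes 5.77% were higher and 10.5% lower. Endou had 0.98, just short of that fold, and passed it at 1.18 with median-of-ratios scaling. Rgcc had -0.90, Aqp11 -0.22 and Myl10 0.34, against a median of -0.14 over all genes. Arpp21 fell short of the fold at -0.87 with that scaling. Endou and Slc5a9 thus lay on opposite sides of WT in the Tcf7-/- and the Vav-cre library, Endou lower in Tcf7-/- and higher in Vav-cre, Slc5a9 the other way round.

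In Lck-cre DN2-3, 0 members were 2-fold higher or lower as a mean of both plates, where 0.935% of 8447 measured genes were higher and 3.48% lower. Endou had -0.46 and -0.68 by plate and was the only member lower on both plates by more than the difference between them. Slc5a9 had 0.84 and -0.33 by plate, so the sign of its mean of 0.25 differed between plates. The other 5 members had means between -0.15 and 0.18.

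**Figure D3:**
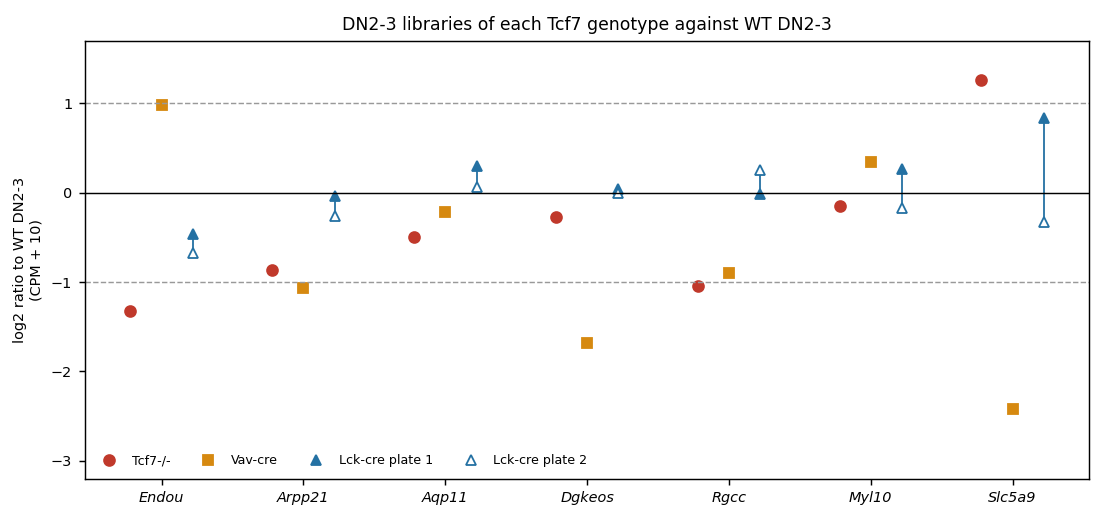
Log2 ratio of CPM + 10 of each gene in the DN2-3 library of each Tcf7 genotype to WT DN2-3, with both Lck-cre plates shown and joined by a line; dashed lines mark 2-fold. Tcf7-/- and Vav-cre lie on opposite sides of WT for Endou (-1.32 and 0.98) and Slc5a9 (1.26 and -2.42), and on the same side for Arpp21 and Rgcc.

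Other gene groups moved between the same libraries. Of 10 genes of the DN3 stage, 3 were at least 2-fold higher and 0 lower in Tcf7-/- against WT DN2-3, with a median log2 ratio of 0.33, and in Vav-cre 2 were higher and 1 lower, with a median of 0.38. Summed genes of the DN2 stage and of progenitors had 38.8 CPM in Tcf7-/-, 89.2 in Vav-cre, 221 and 292 in Lck-cre and 535 in WT DN2-3. Of 12 genes of the G2 and M phases of the cell cycle, 4 were higher and 0 lower in Tcf7-/-, with a median of 0.80, against -0.17 over all genes. Markers of red cells and mast cells summed to 420.2 CPM in Vav-cre DN2-3 and 31.1 CPM in WT DN2-3; in Vav-cre these were Hba-a1 at 322, Hbb-bt at 79.0 and Gata1 at 19.4 CPM, and the mast cell genes Mcpt8 and Ms4a2 were at 0 in all DN2-3 libraries. Genes of double-positive thymocytes (Cd4, Cd8a and Cd8b1) summed to 164 CPM in Tcf7-/-, 141 in Vav-cre, 4.58 and 4.96 in Lck-cre and 43.6 in WT DN2-3. The 3 markers of gamma-delta T cells in the file summed to 247 CPM in Tcf7-/-, 56.1 in Vav-cre, 79.0 and 71.0 in Lck-cre and 63.3 in WT DN2-3, and Cd163l1 made up 229.7 CPM of the Tcf7-/- sum. Their part in the differences of the members was not tested.

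To see where in the gate each gene lay, the cells of each DN2-3 plate were ordered by log2 of the summed CPM of the DN3 stage genes minus that of the DN2 and progenitor genes, each with 100 CPM added. The 25 to 31 cells at either end of each plate were then summed, called here the upper end and the lower end. The ends are not the same cells on every plate. Cpa3, a progenitor gene of the list, was found in 19.4% of the cells at the lower end in Tcf7-/-, 28.0% in Vav-cre, 90% and 79.3% in Lck-cre and 96.6% in WT. Ptcra was found in 96.8% of the cells at the lower end in Tcf7-/- and 58.6% in WT. Values are also given for the Lck-cre and WT plates alone, a choice made after seeing the data. The order is a range and not a cell type: 40 to 72 cells of a plate lay within 0.5 of one of the cuts. No member is in either list.

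Slc5a9 was the member with the widest contrast, higher at the upper end on 5 of 5 plates. It had 717 CPM at the upper end and 96.1 at the lower end in Tcf7-/-, 36.0 and 1.39 in Vav-cre, 348 and 62.7 on Lck-cre plate 1, 203 and 29.8 on Lck-cre plate 2 and 184 and 34.4 in WT. The mean log2 ratio of the 5 plates was 2.33 (2.02 to 2.78). Ptcra, a gene of the list itself, had 2.37 (1.43 to 3.22). Over the Lck-cre and WT plates alone the mean of Slc5a9 was 2.28 (2.12 to 2.42). A count of Slc5a9 was found in 41.4% of the cells at the upper end and 20.7% of those at the lower end in WT. At the upper end alone, Tcf7-/- was again the highest and Vav-cre the lowest plate. In Vav-cre 16.0% of the 25 cells at the upper end and 8.00% of those at the lower end had a count. The ratio of that plate thus rests on few cells.

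Arpp21, Aqp11 and Rgcc were also higher at the upper end on 5 of 5 plates, by means of 0.88, 0.79 and 0.47. Arpp21 had 1151 CPM at the upper end and 692 at the lower end in Tcf7-/-, 937 and 635 in Vav-cre, 2519 and 1019 on Lck-cre plate 1, 2372 and 1061 on Lck-cre plate 2 and 2221 and 1395 in WT. Endou, Dgkeos and Myl10 were higher at the upper end on 4 of 5 plates. The exception was Tcf7-/- for Endou, with 282 CPM at the upper end and 319.6 at the lower end. For Dgkeos it was Vav-cre, with 89.4 and 117 CPM, and for Myl10 it was WT, with 226 and 246 CPM. Over the Lck-cre and WT plates alone, the means were 1.21 for Dgkeos, 1.04 for Arpp21, 0.93 for Aqp11, 0.90 for Endou, 0.67 for Myl10 and 0.46 for Rgcc, and each of these but Myl10 was higher at the upper end on 3 of 3 plates. Myl10 had its widest contrast in Tcf7-/-, with 419 CPM at the upper end and 77.5 at the lower end.

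Depth differed along the order. The median cell held 53372 counts at the upper end and 93911 at the lower end in Tcf7-/-, 44913 and 41491 in Vav-cre, 43798 and 69119 on Lck-cre plate 1, 39537 and 44662 on Lck-cre plate 2 and 30977 and 65383 in WT. Thinning every cell to 10000 counts left the mean within-plate Spearman correlation with the summed DN3 stage genes at 0.29 for Slc5a9, against 0.28 before. Myl10 went from 0.26 to 0.20, and the other members moved less than Myl10. That correlation is over all cells of a plate and is not the contrast between the ends. With each plate cut into a lower and an upper part of equal size, Slc5a9 was higher at the upper end on 5 of 5 plates, by a mean of 1.98. Endou, Arpp21 and Myl10 then were higher on 5 plates and Aqp11, Dgkeos and Rgcc on 4.

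**Figure D4:**
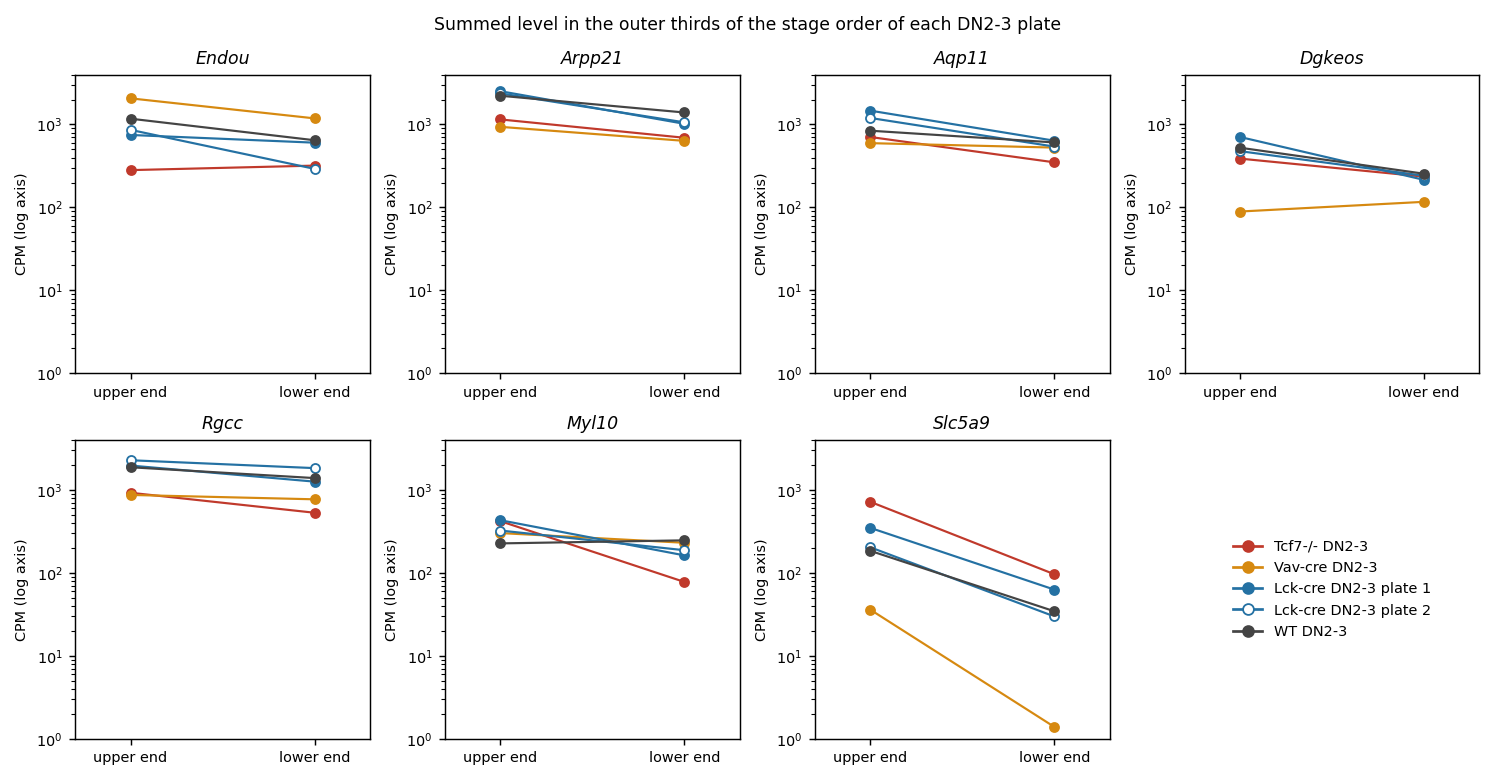
Summed CPM (log axis) of each gene in the cells at the upper end and the lower end of the stage order of each DN2-3 plate, 25 to 31 cells a point, with a line for each plate. Every line falls from the upper to the lower end for Slc5a9, Arpp21, Aqp11 and Rgcc, and the fall is steepest for Slc5a9.

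Cell by cell, the members varied with each other only weakly. Spearman correlations over the cells of a plate, averaged over the 5 DN2-3 plates, ran from -0.01 (Endou with Myl10) to 0.28 (Arpp21 with Aqp11) over all pairs, and Arpp21 was positive on 5 of 5 plates with each member but Myl10. These values share the cells and the depth of each cell, and in sparse counts weak correlations are no finding. With the summed DN3 stage genes the mean was 0.40 for Arpp21 (0.25 to 0.54), 0.38 for Aqp11 (0.24 to 0.50), 0.28 for Slc5a9, 0.26 for Myl10, 0.22 for Dgkeos, 0.20 for Rgcc and 0.18 for Endou. With the G2 and M phase genes every mean was below 0, from -0.21 for Arpp21 to -0.03 for Slc5a9. Rgcc, named for the cell cycle, had -0.11.

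**Figure D5:**
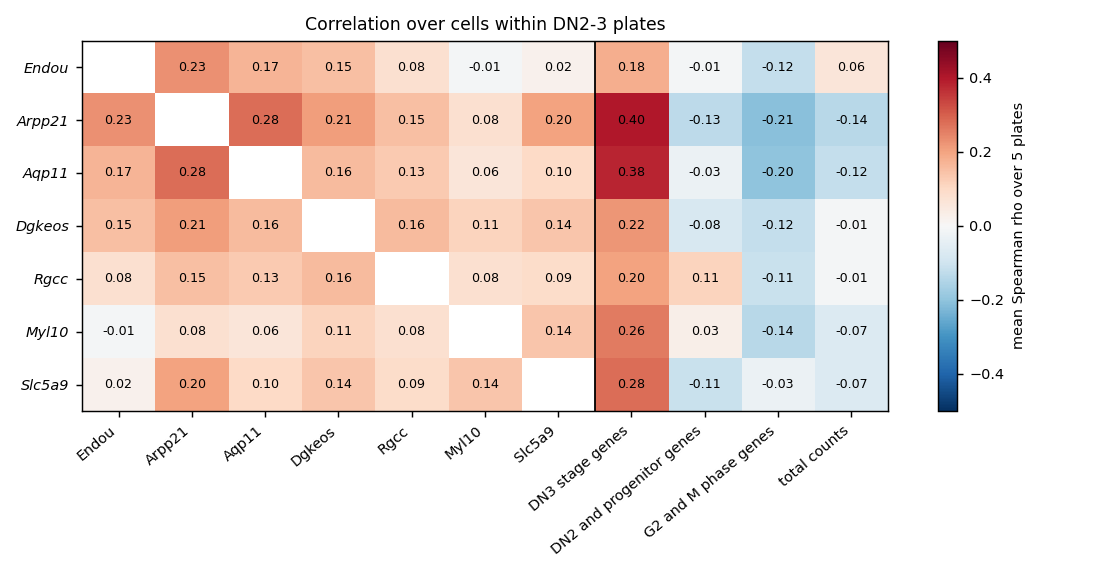
Mean over the 5 DN2-3 plates of the Spearman correlation over cells, between each pair of genes (left of the line) and of each gene with summed marker lists and total counts (right of it). The highest values are those of Arpp21 and Aqp11 with the DN3 stage genes, 0.40 and 0.38.

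Most cells of the DN2-3 gate held counts of several members. The genes were chosen for high levels in this gate and few counts in WT DN1, so the numbers of cells below describe the choice. At least 5 of the 7 genes had a count in 88 of 93 Tcf7-/-, 61 of 76 Vav-cre, 87 of 91 and 76 of 87 Lck-cre and 83 of 88 WT DN2-3 cells. In DN1 that held for 59 of 96 Tcf7-/- cells, 0 of 58 Vav-cre cells and 0 of 86 WT cells. With over 5 counts of a gene asked for, at least 5 of the 7 were found in 62 Tcf7-/-, 39 Vav-cre, 66 and 56 Lck-cre and 56 WT DN2-3 cells, and in 0 cells of each DN1 library, Tcf7-/- included. No DN2-3 cell lacked all 7, while 35 Vav-cre and 59 WT DN1 cells did. All 7 were found together in 45 Tcf7-/-, 4 Vav-cre, 38 and 26 Lck-cre and 23 WT DN2-3 cells.

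The genes most like each member were named by the highest mean Spearman correlation over the cells of the 5 DN2-3 plates, among 4293 genes at 50 CPM or more and found in at least 20% of the cells of a DN2-3 library. Lck, the kinase that starts T-cell receptor signalling, was among the first 3 for Endou (0.23), Arpp21 (0.36), Aqp11 (0.42), Dgkeos (0.25) and Rgcc (0.25). Malat1, a nuclear noncoding RNA, led for Arpp21 (0.52), before Smarca4 (0.41), and stood second for Aqp11 (0.38), before Hdac4 (0.31). For Endou the others were Patz1 (0.21) and Xiap (0.20), and for Dgkeos they were Ptcra (0.27) and Ly6d (0.26). Rgcc was closest to H3f3b (0.26) and had Rps27 at 0.22. Myl10 was closest to Pld4 (0.26), B2m (0.22) and Tcf25 (0.21). Slc5a9 was closest to Ldhb, Ptcra and Rag1, each at 0.30. Lck, Ptcra and Rag1 are also in the list of DN3 stage genes.

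Over the 8 libraries, the genes with the most similar log2 levels were Tcf12 (Pearson 1.00), Acd and Ly6d for Endou, and Dntt (1.00), Tmem242 and Ahi1 for Arpp21. Dntt encodes terminal transferase, which adds bases to T-cell receptor joints. For Aqp11 they were Notch1, Notch3 and Nudc at 0.99, and for Dgkeos Bcl7a (0.99), Pgls and Epg5. Paics (0.99), Rmnd1 and Ptov1 were closest to Rgcc, Cdca7, Rab44 and Prss57 at 0.99 to Myl10, and Ilf2 (0.99), Ung and Ndufs8 to Slc5a9. With 8 points that fall into 2 gates, such values mostly restate the gate.

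The DN1 libraries were compared with WT DN1, the library that the choice of the genes took as the low one, so the direction of these ratios is a description. In Tcf7-/- DN1 all 7 members were at least 2-fold higher, against 10.4% of 8579 measured genes, with 5.34% lower. Taken at a floor of 3 counts, Endou was 100.3-fold, Myl10 38.2-fold and Slc5a9 29.1-fold higher. The exact intervals of these ratios start lower, at 80.7, 30.2 and 22.8. Arpp21 was 18.4-fold (14.3 to 24.1), Dgkeos 9.46-fold (5.42 to 17.7), Rgcc 6.13-fold (5.41 to 6.98) and Aqp11 3.58-fold (2.75 to 4.70) higher. In Vav-cre DN1, 4 members reached 10 CPM in either library and 2 were at least 2-fold higher, against 18.0% of 8798 genes, with 9.64% lower. These were Endou, 32.2-fold at the floor of 3 counts with an exact interval from 23.9, and Rgcc, 5.11-fold (4.37 to 5.98). Without the highest cell of each library the Endou log2 ratio in Vav-cre DN1 was 0.09, against 1.24 with it.

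The counts in Tcf7-/- DN1 were spread thinly over many cells. Endou was found in 75% of its 96 cells with a median of 1.0 count and over 5 counts in 5 cells. Arpp21 was found in 94.8% with a median of 4.0 counts and over 5 counts in 30 cells. Myl10 and Slc5a9 were found in 45.8% and 34.4% of the cells, and in none with over 5 counts. With every count of 1 to 5 set to 0, 3 of the 7 members stayed at least 2-fold higher, Endou (log2 ratio 1.06), Arpp21 (2.85) and Rgcc (2.29), while Aqp11 had -0.27 and Dgkeos -0.06.

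Of 12 reference genes known from DN2-3 cells, 11 were found in a larger share of Tcf7-/- DN1 cells than of WT DN1 cells, by 8.90 to 91.1 percentage points, and Nrarp had no count in either. The widest difference was that of Dntt, found in 96.9% of Tcf7-/- and 5.81% of WT cells, and the smallest that of Gata3, found in 72.9% and 64.0%. Lef1 was found in 63.5% and 48.8%, and Bcl11b in 78.1% and 55.8%. Tcf7, the gene named as deleted, is itself among the 11, found in 84.4% of Tcf7-/- and 57.0% of WT DN1 cells. The share of all genes found in more Tcf7-/- DN1 than WT DN1 cells was not measured. The 11 are thus not shown to be particular to genes of DN2-3 cells. By level, 6 of the 11 were at least 2-fold higher in Tcf7-/- DN1 and 0 lower, against 10.4% and 5.34% of all measured genes. The median cell held 37088 counts in Tcf7-/- DN1 and 66572 in WT DN1. Levels in Tcf7-/- DN1 as a percentage of those in Tcf7-/- DN2-3 differed between members: 4.33% for Slc5a9, 6.52% for Dgkeos, 8.05% for Myl10, 8.74% for Aqp11, 13.6% for Endou, 20.3% for Arpp21 and 38.5% for Rgcc. The same barcode numbers, 96 in all, are used on all 8 plates. Over the 93 numbers kept on both Tcf7-/- plates, the Spearman correlation between the DN1 and the DN2-3 cell of a number was 0.30 for Myl10, 0.28 for Aqp11, 0.19 for Dgkeos, 0.18 for Arpp21 and Slc5a9, 0.06 for Endou and -0.01 for Rgcc. Over the 11 reference genes with counts it ran from -0.08 to 0.43, with a median of 0.05, and Ptcra, of the DN3 stage list, had 0.48. In WT DN1 most of these genes had too few counts for such a correlation to be read. Bcl11b, Gata3, Lef1 and Tcf7, found in 48.8% to 64.0% of WT DN1 cells, had -0.03 to 0.21. On the Vav-cre plates, with 49 shared numbers, the correlation ran from -0.23 (Arpp21) to 0.10 (Endou) over the members with a value. Over the reference genes it ran there from -0.27 (Dntt) to 0.26 (Gata3), and Ptcra had 0.12. Many of these genes were also found in few Vav-cre DN1 cells. The part of carry-over between wells of the same number in the low counts of Tcf7-/- DN1 was not tested. Thinned to 10000 counts a cell, which left out 23 shallower cells, Endou was found in 34.2% of Tcf7-/- DN1 cells and Arpp21 in 63.0%, against 0% and 1.23% in WT DN1.

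Of 52 relatives of the members, 19 were measured in the WT libraries, and 3 of these (15.8%) passed 2-fold upward in WT DN2-3 over WT DN1, near the 16.3% of all measured genes. Of 11 other aquaporins, 10 had 0 counts in every DN2-3 library and Aqp7 had at most 2.97 CPM, while Aqp3, which carries water and glycerol, had 67.3 CPM in Tcf7-/-, 196 in Vav-cre and 30.2 in WT DN1. Of 14 relatives of Slc5a9 among sodium-coupled carriers of its family and glucose carriers, 3 were measured in the WT libraries and 0 were 2-fold higher in DN2-3. Slc5a3, the myo-inositol carrier, had 50.8 CPM in Tcf7-/-, 5.71 in Vav-cre, 29.6 and 40.7 in Lck-cre and 47.4 in WT DN2-3, so it too was lowest in Vav-cre.

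Of 11 other myosin light chains, 4 were measured in the WT libraries and 0 were 2-fold higher in DN2-3. Myl6, Myl12a and Myl12b, light chains of nonmuscle myosin, were found throughout, Myl6 at 991 to 1093 CPM in DN2-3 and 1279 to 2252 CPM in DN1. Of 10 diacylglycerol kinases, 6 were measured and 2 were higher, Dgke and Dgkg, with 2 lower. Of 6 relatives of Arpp21 by name or by the R3H domain, 5 were measured and R3hdm1 was 2-fold higher, with 323 CPM in WT DN2-3 and 125 in WT DN1.

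Of the 17 genes next to the members on the chromosome or overlapping them, 12 were measured in the WT libraries, and 8 of these (66.7%) passed 2-fold upward in WT DN2-3 over WT DN1, against 16.3% of all measured genes; 0 were lower. The 8 include Dgke and both noncoding RNAs that overlap a member. The strand used in counting is not given, so reads over bases shared with the member cannot be told apart from its own. Both noncoding RNAs were low, with 10.7 CPM (2310075C17Rik) and 20.7 CPM (2900079G21Rik) in WT DN2-3 and 0 in WT DN1. The cause of the higher share was not tested. Rapgef3, a cAMP-regulated exchange factor that lies 13431 bases from Endou, had 87.1 CPM in Tcf7-/-, 137 in Vav-cre, 236 and 200.5 in Lck-cre and 233 in WT DN2-3. Its DN1 levels were 16.1 CPM in Tcf7-/-, 1.29 in Vav-cre and 0 in WT. Its order among DN2-3 libraries differed from that of Endou, since Vav-cre lay below WT. Gm525, which lies 4743 bases from Dgkeos on the same strand, had 128 CPM in Tcf7-/-, 100.4 in Vav-cre, 97.0 and 153 in Lck-cre and 161 in WT DN2-3, and 10.8 CPM in Tcf7-/- and 0 in Vav-cre and WT DN1. Cux1, a homeodomain factor and the nearest gene on one side of Myl10, had 176 CPM in Tcf7-/-, 123 in Vav-cre, 239 and 213 in Lck-cre and 377 in WT DN2-3, against 84.4 in Tcf7-/-, 75.6 in Vav-cre and 49.9 in WT DN1. Rpap3, on the other side of Endou, and Pak1, beside Aqp11, were higher in WT DN2-3 than in WT DN1 by log2 ratios of 1.56 and 1.17. The other 4 measured were Clns1a beside Aqp11, with 0.90, Naa16 beside Rgcc, with 0.51, Spata6 beside Slc5a9, with 0.49, and Trim25 beside Dgkeos, with 0.00. Of those below 10 CPM in both WT libraries, Col26a1 beside Myl10 had at most 5.61 CPM and Skint8 beside Slc5a9 at most 0.646 CPM, and Stac, AU023762 and Zfp957 had no count.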

How the data were processed

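RNA of each sorted cell was amplified by a modified STRT method and read from both ends, per the labels' protocols. The submitters' processing notes name TopHat2 2.1.1, HTSeq and mm10; whether molecular identifiers were collapsed, and on which strand reads were counted, is not given in the sources used here. One deposited file holds unnormalized counts of each gene in each cell. A deposited file of log2 values, turned back, was proportional to the counts within each cell (the ratio varied by at most 0.0466%) and served as an alternative.

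Of 23154 entries, 27 with a date for a name (0.141% of counts) were dropped. Counts of cells with 1000 or more detected genes were summed per plate and scaled to CPM. Ratios used a pseudocount of 10 CPM, and a gene counted as called at 2-fold or more among genes at 10 CPM or more in either library. A ratio against 0 counts takes the 0 as a floor of 3 counts, and the exact interval of such a ratio starts lower. Each plate is 1 library and the labels name no animals, so there is no test: intervals are exact Poisson for a count, conditional binomial for a ratio and Clopper-Pearson for a share, at 95%, and amplified molecules are not independent. The Lck-cre plates may share animals, and their difference is the only measure of spread. Cells were sorted singly and no doublet caller was run. The ratio code was tested on simulated data, and the interval code was not. The members and the gene lists were chosen with earlier results of these data known. Genes most alike were the 3 highest for each of 2 measures, leaving out unnamed gene models, Xist and Y-linked genes. Alternatives covered the limit on detected genes, low counts, the highest cell, weighting, thinning, scaling, pseudocount and filter. The unthinned shares of cells, the correlation over barcode numbers and the stage order without the Tcf7-/- and Vav-cre plates were chosen after seeing the data. Neighbouring genes come from GENCODE on mm10. Python 3.11.15, numpy 2.4.6, pandas 2.3.3 and scipy 1.17.1 were used.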

Additional observations from a re-analysis of the deposited data

Results flagged for a closer look

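Endou and Rgcc had opposite signs in the 2 gates under the same contrast of genotypes: Tcf7-/- over WT was -1.32 for Endou and -1.04 for Rgcc in the DN2-3 gate, and 2.39 for Endou and 2.37 for Rgcc in the DN1 gate (log2 ratios). Signs were also opposite for Arpp21 (-0.87 in DN2-3 and 3.22 in DN1), Aqp11 (-0.49 and 1.26), Dgkeos (-0.27 and 1.31) and Myl10 (-0.15 and 1.38). Slc5a9 lay above WT in both gates (1.26 and 1.15). The pattern is thus not particular to Endou and Rgcc, the members past 2-fold with opposite signs. Not all of these signs held under the alternatives. With 1 library per genotype and gate the difference between the gates was not tested, and the DN1 libraries were in part the low group by which the genes were picked.

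Slc5a9 lay above WT DN2-3 in the library labelled Tcf7-/- and below it in the library labelled Vav-cre, whose Tcf7 level (964 CPM) was not below that of WT (862 CPM): its log2 ratio was 1.26 in Tcf7-/- and -2.42 in Vav-cre. This difference was not tested either. The sign of each held under every alternative run, with ranges of 1.03 to 1.67 and -3.02 to -1.37.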

How the results depend on the processing

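All 7 members passed 2-fold in WT DN2-3 over WT DN1 under each alternative, and 6 or 7 did in Tcf7-/- and in Vav-cre. No member passed 2-fold in Lck-cre against WT DN2-3 under any of them, those without Lck-cre replicate 1 or 2 included (0 to 0). In Tcf7-/- DN1 over WT DN1 the 7 members higher became 3 with counts of 1 to 5 set to 0, where Aqp11 had -0.27 and Dgkeos -0.06, below 0 instead of above it, and 2 with a pseudocount of 50 CPM or with genes at 50 CPM or more. In Vav-cre DN1 over WT DN1 the 2 members higher became 1 without the highest cell, with a pseudocount of 50 CPM and with genes at 50 CPM or more. In Tcf7-/- over WT DN2-3 the 2 members lower became 1 with cells weighted equally, with thinning to 10000 counts, with median-of-ratios scaling and with the deposited log2 values. In Vav-cre over WT DN2-3 the 0 members higher became 1 with median-of-ratios scaling, and the 3 lower ran from 2 to 4 over all alternatives. Beyond the construction of each alternative, the cause was not tested. Median-of-ratios scaling moved the median over all genes from -0.17 to 0.01 in Tcf7-/- and from -0.14 to 0.04 in Vav-cre against WT DN2-3, and from 0.15 to -0.04 between the WT gates. No paired analysis was possible because each group but Lck-cre is 1 library and no result comes from a test. Depth limits the smallest library, Vav-cre DN1, in which 1 count is 0.646 CPM.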
